A study of Mus musculus with 6 samples.

Results

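The data are RNA-Seq measurements on microdissected craniofacial tissue of mouse embryos at E12.5. The 10 genes described here encode the kinase TAK1 (*Map3k7*), its partners TAB1, TAB2 and TAB3 (*Tab1*, *Tab2*, *Tab3*), the upstream ubiquitin ligase TRAF6 (*Traf6*) and kinases downstream of it (*Map2k3*, *Map2k6*, *Mapk14*, *Mapk8* and *Mapk9*). They were chosen by name for their place in the pathway, and each matched exactly 1 of the 38553 genes in the deposited table. The control group is 3 samples of tissue labelled Rbfox2 flox/flox, from embryos that carry floxed *Rbfox2* alleles without Cre. The mutant group is 3 samples of tissue labelled Pax3Cre/+:Rbfox2 flox/flox, from embryos that carry the same alleles and in addition Cre knocked into 1 copy of *Pax3*. All 6 samples thus have floxed *Rbfox2*, and the Cre allele itself is carried by the mutants alone. Whether a sample is 1 embryo or several is not stated in the sources used here. *Pax3* Cre is active in premigratory and migratory neural crest and also in dorsal neural tube, paraxial mesoderm and somites, while the dissected tissue also holds cells that never expressed Cre.

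TAK1 is a MAP kinase kinase kinase that cytokine and TGF-β receptors switch on. TRAF6 builds ubiquitin chains at the receptor, TAB2 and TAB3 bind these chains, and TAB1 binds the kinase domain of TAK1 and promotes its autophosphorylation. Active TAK1 phosphorylates MAP kinase kinases, of which MKK3 (*Map2k3*) and MKK6 (*Map2k6*) activate p38 kinases such as p38α (*Mapk14*), and MKK4 (*Map2k4*) and MKK7 (*Map2k7*) activate the JNK kinases JNK1 (*Mapk8*), JNK2 (*Mapk9*) and JNK3 (*Mapk10*). In neural crest, TAK1 is known to be needed for palate formation. All of these steps are controlled largely by phosphorylation and ubiquitination, which RNA-Seq does not measure.

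2 sets of sequences show what a value for a whole gene covers. In GENCODE M21 on GRCm38, *Map3k7* has 4 protein-coding transcripts, and exon 12 adds 81 bases of coding sequence, or 27 codons in frame, to those that hold it. Exon 12 lies on the plus strand at chr4:31994874-31994954, between the end of exon 11 at 31992516 and the start of the next exon at 32002089, and 2 of the 4 transcripts hold it. The study flanked this exon with its RT-PCR primers. Below, 15 bases of each neighbouring exon are in lower case and exon 12 is in capitals.
Map3k7 with exon 12: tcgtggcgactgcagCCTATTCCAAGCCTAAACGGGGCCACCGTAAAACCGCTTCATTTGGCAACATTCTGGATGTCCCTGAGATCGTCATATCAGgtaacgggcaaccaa
Map3k7 without exon 12: tcgtggcgactgcaggtaacgggcaaccaa
The FPKM of *Map3k7* adds fragments of both forms, so it carries no information on how exon 12 was used. Exon 16 (116 bases, chr4:32017037-32017152) is also held by 2 of the 4 transcripts. The letters TGCATG, the motif that Rbfox proteins bind in RNA, were found 0 times in exon 12 on either strand, which says nothing of the introns around it, whose sequence was not used here.

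Of the MAPKs of the set, p38α is told apart from the JNK kinases by the Thr-Xaa-Tyr motif of the activation loop. MAP kinase kinases act on this motif, which does not tell JNK1 from JNK2. Its codons are shown in capitals with 6 codons on each side.
Mapk14: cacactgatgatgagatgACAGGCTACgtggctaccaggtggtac
Mapk8: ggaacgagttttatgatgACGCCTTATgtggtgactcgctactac
Mapk9: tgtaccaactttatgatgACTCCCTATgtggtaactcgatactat
The p38α codons read Thr-Gly-Tyr and those of both JNK kinases read Thr-Pro-Tyr, the latter with the threonine at codon 183 in *Mapk8* and *Mapk9*. These codons were found in 7 of 8, 5 of 6 and 7 of 7 complete coding transcripts of *Mapk14*, *Mapk8* and *Mapk9*.

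Values are FPKM, the fragments mapped to a gene scaled by its length and by the depth of the library, so levels of different genes can be set side by side. The number of fragments behind a value is unknown, and no interval for counting error can be given. Groups were compared with limma on the log2(FPKM + 1) scale, with Benjamini-Hochberg adjustment over the 10061 genes that exceeded an FPKM of 5 in each sample of at least 1 group. All 10 members passed this filter, 9 of them in both groups, while *Tab3* passed through its mutant values alone. *Rbfox2*, the deleted gene, had an FPKM of 58.4, 65.0 and 61.3 in control replicates 1, 2 and 3 and of 38.1, 36.3 and 34.3 in mutant replicates 1, 2 and 3, with the mutants below every control. Control replicate 1 and mutant replicate 1 lay apart from the rest, at -19.1 and -17.0 on a first principal component that carried 54.7% of the variance, against 7.55 to 11.01 for the others. Y-linked genes were expressed in mutant replicates 1 and 2 alone (mean FPKM of 4 genes 14.4 and 13.9, against at most 0.0541). The sexes were thus not balanced between the groups, and no control expressed these genes. With Y-linked expression in the fit, the group difference therefore rests in effect on mutant replicate 3 against the controls. Values from that fit given below hold Y-linked expression level, but they rest on a single mutant. They cannot separate the sex of mutant replicates 1 and 2 from other traits of mutant replicate 3. All 6 markers of cranial mesenchyme were above an FPKM of 1 in every sample, as the tissue label requires. The same held for the 6 markers each of neurons, epithelium, erythroid cells and endothelium. The summed FPKM of 6 neuron markers was 593 to 697 in controls and 737 to 844 in mutants, with no overlap. In all other marker lists the sums overlapped, namely cranial mesenchyme, epithelium, erythroid cells, skeletal muscle, endothelium, macrophages, and choroid plexus and forebrain. In bulk tissue, fewer cells of a type and less RNA per cell cannot be told apart.

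No member reached an adjusted p under 0.05 in limma, as no gene of the 10061 did (0%). That includes the deleted gene *Rbfox2*, with a log2 difference of -0.75, an unadjusted p of 2.7e-05 and an adjusted p of 0.138 in limma. An adjusted p above 0.05 thus does not show that a gene was unchanged. At an unadjusted p under 0.05, 1 of the 10 members was called, *Map2k3*, which was lower in mutants, against 1.66% of all genes tested (0.954% lower and 0.706% higher in mutants). Of the 10 members, 7 had a negative and 3 a positive log2 difference, with a median of -0.033 against 0.0057 over all genes. The size of the difference was under 0.1 on the log2 scale in 8 of 10 members and in 74.4% of all genes. The groups did not overlap in 2 members, *Map2k3* and *Traf6*, both lower in mutants, against 5% of all genes (2.37% lower and 2.63% higher). The members were also steady from sample to sample. Their coefficient of variation over the 6 samples had a median of 5.96%, against 9.34% over all genes tested, and was below that value in 7 of the 10.

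**Figure D1:**
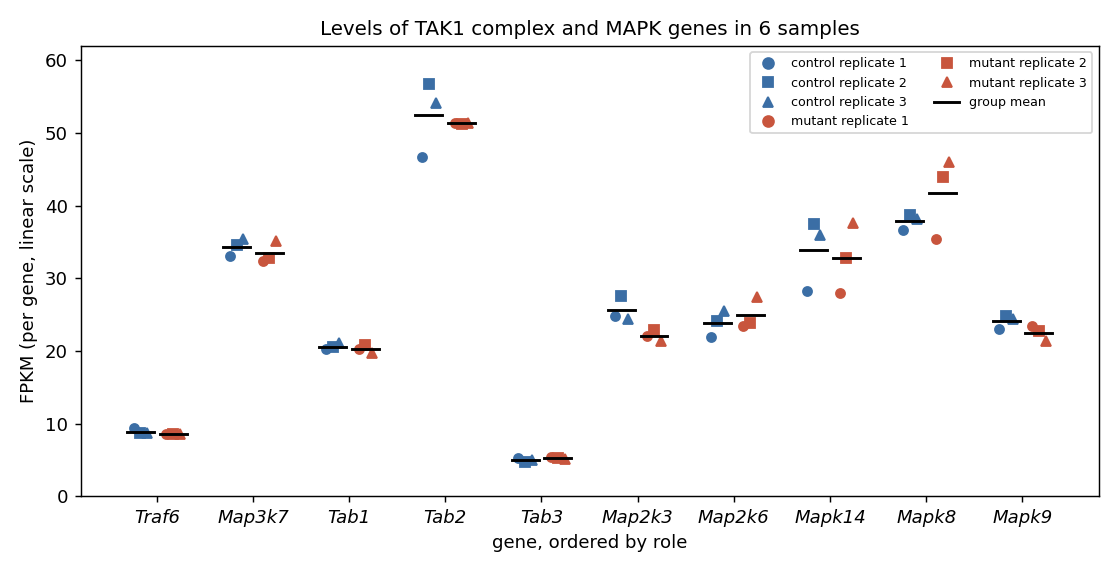
FPKM of the 10 genes (vertical axis, linear scale) in each of the 3 control (blue) and 3 mutant (red) samples, with the replicate number as the marker shape and the group mean as a bar. *Tab2* is highest and *Tab3* lowest in every sample, and *Map2k3* and *Traf6* are the genes in which every mutant lies below every control.

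*Traf6* (ENSMUSG00000027164, chromosome 2 of GRCm38 from 101678429 to 101701669), the E3 ligase that links receptors to TAK1, was among the least abundant members. Its FPKM was 9.34, 8.75 and 8.65 in control replicates 1, 2 and 3 and 8.63, 8.52 and 8.603 in mutant replicates 1, 2 and 3. Every mutant lay below every control, but the gap between the lowest control and the highest mutant was smaller than the spread of the controls. The log2 difference was -0.048 (standard error 0.073, limma, adjusted p = 1), and it was -0.017 without control replicate 1, the highest sample. The smallest exact permutation p that 3 samples against 3 allow is 0.10, and *Traf6* had that value (two-sided).

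*Map3k7* (ENSMUSG00000028284, chromosome 4 from 31964097 to 32023467) encodes TAK1 itself. Its FPKM was 33.1, 34.6 and 35.4 in the controls, against 32.4, 32.8 and 35.1 in the mutants, in the order of replicates 1, 2 and 3. The groups overlapped, and mutant replicate 3 exceeded 2 of the 3 controls. The mutant was slightly lower in each replicate number, by -0.032, -0.075 and -0.011 on the log2 scale, a pattern that 3 of the 10 members and 13.1% of all genes tested showed. The log2 difference in limma was -0.039 (standard error 0.073), at -0.074 to -0.018 with each sample left out in turn and at 0.032 with Y-linked expression in the fit. Its 95% interval ran from 0.864 to 1.10 times the control level on the FPKM + 1 scale. Larger changes of the whole gene, averaged over the dissected tissue, thus lie outside the interval. Changes within it, and no change, cannot be told apart here. The interval does not bound a change in the cells that expressed Cre, as the tissue also holds others.

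*Tab1* (ENSMUSG00000022414, chromosome 15 from 80133127 to 80161707), the activating subunit, varied least of the members. Its FPKM was 20.2, 20.5 and 21.1 in the controls, against 20.3, 20.8 and 19.7 in the mutants. The highest value was 1.07 times the lowest, and the 95% interval of the group difference was 0.882 to 1.10 times. On the log2 scale it was -0.021, and -0.0015 without mutant replicate 3. The FPKM of *Map3k7* was 1.64, 1.69 and 1.68 times that of *Tab1* in control replicates 1, 2 and 3 and 1.59, 1.58 and 1.78 times in the mutants. The log2 ratio differed by -0.019 (standard error 0.056, n = 3 per group, exact two-sided permutation p = 0.80, adjusted over 5 ratios 1), less than the spread between replicates.

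*Tab2* (ENSMUSG00000015755, chromosome 10 from 7905653 to 7956230) and *Tab3* (ENSMUSG00000035476, chromosome X from 85574022 to 85634469) encode the subunits that bind ubiquitin chains. *Tab2* had the highest FPKM of all members in every sample, at 46.7, 56.8 and 54.1 in the controls, against 51.4, 51.3 and 51.4 in the mutants. The controls spread on both sides of the 3 mutant values, which lay close together. *Tab3* had the lowest FPKM in every sample, at 5.20, 4.75 and 4.95 in the controls, against 5.45, 5.27 and 5.15 in the mutants. Control replicate 1 lay above mutant replicate 3, so the groups overlapped, although *Tab3* was higher in the mutant of each replicate number. Of all genes tested, 13.6% were higher in this way. Its log2 difference was 0.077 (standard error 0.078, limma, adjusted p = 1). *Tab3* passed the filter only through its mutant values and is X-linked. With Y-linked expression as a covariate, in effect mutant replicate 3 against the controls, its log2 difference was 0.045.
Of the summed FPKM of the 3 TAB genes, *Tab2* made up 64.8% to 69.2% over the 6 samples, *Tab1* 24.99% to 28.0% and *Tab3* 5.78% to 7.22%. In none of these shares were the groups apart. The log2 ratio of *Tab2* to *Tab1* differed by -0.0064 between groups (standard error 0.078) and that of *Tab3* to *Tab2* by 0.10 (standard error 0.12). Their exact permutation p-values were 1 and 0.40 (two-sided, n = 3 per group), or 1 and 0.667 adjusted over 5 ratios.

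*Map2k3* (ENSMUSG00000018932, chromosome 11 from 60932033 to 60952811), which encodes the p38 activator MKK3, had the smallest p of the members. Its FPKM was 24.8, 27.6 and 24.4 in control replicates 1, 2 and 3 and 22.0, 22.9 and 21.4 in mutant replicates 1, 2 and 3. Every mutant was below every control, with a mean of 22.1 ± 0.734 (SD, n = 3) against 25.6 ± 1.72 (SD, n = 3). The log2 difference was -0.20 (standard error 0.079), with an unadjusted p of 0.037 that ranked 110th of 10061 genes and an adjusted p of 1 in limma. It was -0.16, -0.26 and -0.18 between the samples numbered 1, 2 and 3. The sign was the same with each sample left out in turn, at -0.23 to -0.15, but the unadjusted p stayed under 0.05 only without control replicate 1 (0.0398). Without control replicate 2, the highest of the 6, it was 0.129, and without control replicate 3 or mutant replicates 1, 2 and 3 it was 0.0561, 0.0689, 0.0587 and 0.106. With Y-linked expression as a covariate, in effect mutant replicate 3 against the controls, the log2 difference was -0.24.

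*Map2k6* (ENSMUSG00000020623, chromosome 11 from 110399122 to 110525522), which encodes the related p38 activator MKK6, did not show the same pattern. Its FPKM was 21.9, 24.2 and 25.5 in the controls, against 23.4, 23.8 and 27.4 in the mutants, and the groups overlapped. The log2 difference was 0.060 (standard error 0.095, limma, adjusted p = 1) and was -0.0097 without mutant replicate 3. The ratio of *Map2k6* to *Map2k3* within a sample does not depend on how the sample was scaled. It was 0.883, 0.877 and 1.04 in control replicates 1, 2 and 3 and 1.07, 1.04 and 1.28 in the mutants. The mutant ratio was the higher in each replicate number, by 0.26, 0.24 and 0.28 on the log2 scale, but control replicate 3 and mutant replicate 2 overlapped narrowly. Over the groups the log2 ratio differed by 0.26 (standard error 0.12, n = 3 per group), with an exact two-sided permutation p of 0.20 and 0.667 adjusted over 5 ratios. With the replicate number as a block, the difference was the same 0.26 with a standard error of 0.013, as the 3 differences within replicate numbers were alike. That standard error holds only for pairing by number, which correlations between samples do not single out for numbers 2 and 3. Control replicate 3 and mutant replicate 2, which differ in number, both had a ratio of 1.04. Flipping the signs of the 3 differences within replicate numbers gave an exact two-sided p of 0.25. That is the smallest p for 3 pairs, as 0.10 is for 3 samples against 3, so neither exact test could have passed 0.05 for any of the 5 ratios.

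**Figure D2:**
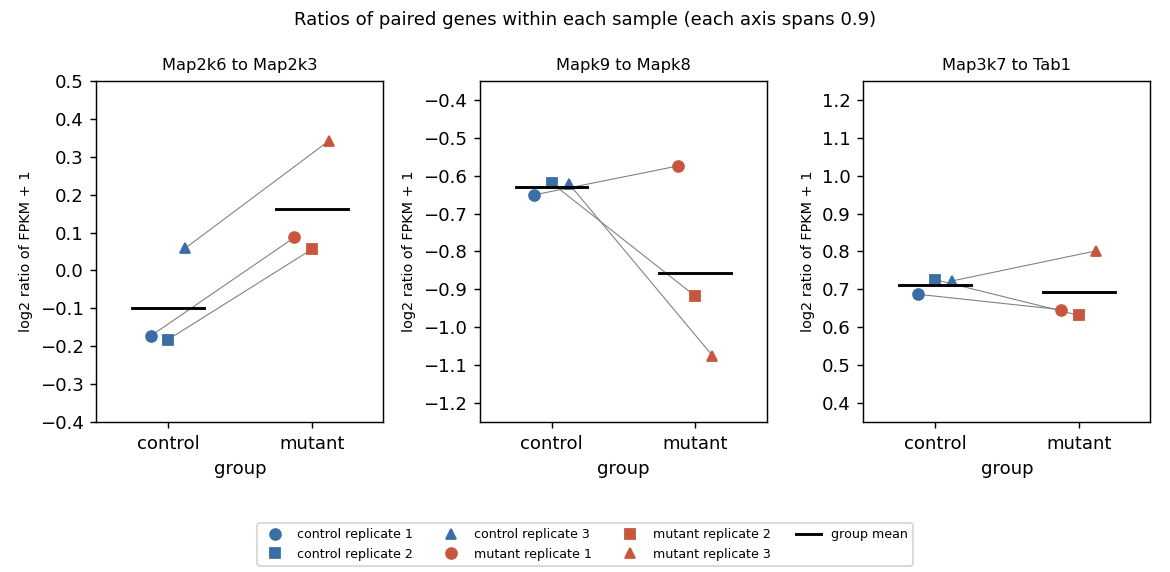
Log2 ratio of FPKM + 1 of 2 genes within each sample, for controls (blue) and mutants (red), with thin lines joining samples of the same replicate number and bars for group means. The ratio of *Map2k6* to *Map2k3* is higher in the mutant of all 3 replicate numbers, that of *Mapk9* to *Mapk8* is lower in mutant replicates 2 and 3 but not 1, and that of *Map3k7* to *Tab1* has no common direction.

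*Map2k4* and *Map2k7*, which encode the JNK activators MKK4 and MKK7, belong to the same tier. *Map2k4* had an FPKM of 33.6, 34.3 and 34.6 in the controls, against 34.2, 33.7 and 35.3 in the mutants, and the groups overlapped. *Map2k7* was at 24.0, 27.2 and 22.3 in the controls, against 23.4, 22.5 and 21.9 in the mutants, with control replicate 2 as the highest sample, as in *Map2k3*. Their log2 differences were 0.0099 (standard error 0.067) and -0.11 (standard error 0.091), with adjusted p-values of 1 in limma, and that of *Map2k7* was -0.032 without control replicate 2. Of the summed FPKM of the 4 MAP2 kinase genes, *Map2k3* made up 23.8%, 24.3% and 22.9% in the controls, against 21.4%, 22.2% and 20.2% in the mutants, so that every mutant was below every control. The share of *Map2k4* was higher in every mutant (32.7% to 33.3%) than in every control (30.3% to 32.4%), although its own FPKM overlapped. The shares of *Map2k6* and *Map2k7* overlapped. Shares of the same sum depend on each other, so those of *Map2k3* and *Map2k4* are not separate findings. No share was tested between groups, and an exact two-sided permutation p for 3 samples against 3 cannot be below 0.10.

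*Mapk14* (ENSMUSG00000053436, chromosome 17 from 28691329 to 28748406), which encodes p38α, varied most among the members. Its FPKM was 28.3, 37.5 and 36.0 in control replicates 1, 2 and 3 and 28.0, 32.8 and 37.6 in the mutants. Both first replicates lay below the other 4 samples, a split by replicate number and not by genotype, which *Mapk8* and *Map2k6* also showed and which 34.7% of all genes tested showed in this direction. The log2 difference between groups was -0.048 (standard error 0.14), and its 95% interval of 0.765 to 1.22 times was the widest of the members. Its sign changed, to 0.028 without control replicate 2, to 0.058 without mutant replicate 1 and to 0.16 once Y-linked expression entered the fit.

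The other p38 genes were less abundant. *Mapk11* (p38β) had an FPKM of 12.2 to 15.01 in controls and 13.4 to 14.98 in mutants, *Mapk12* (p38γ) 4.48 to 5.67 and 4.71 to 6.08, and *Mapk13* (p38δ) 4.45 to 6.77 and 4.52 to 4.92. In all 3 genes the groups overlapped, and *Mapk12* and *Mapk13* did not pass the FPKM filter. *Mapk14* made up 53.0% to 61.6% of the summed p38 FPKM, the largest share in every sample.

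*Mapk8* (ENSMUSG00000021936, chromosome 14 from 33377898 to 33447158), which encodes JNK1, had an FPKM of 36.7, 38.7 and 38.1 in control replicates 1, 2 and 3. In the mutants it was 35.4, 44.0 and 46.1, so that mutant replicate 1 was the lowest and mutant replicates 2 and 3 were the highest of the 6 samples. The log2 difference was 0.13 (standard error 0.11, limma, adjusted p = 1). Control and mutant replicate 1 differed by -0.049, and the value was 0.22 in replicates 2 and 3 alone, where the unadjusted p was 0.011 and the adjusted p 0.40 in limma. Without mutant replicate 1 the log2 difference was 0.24, and without mutant replicate 3 it was 0.059.

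*Mapk9* (ENSMUSG00000020366, chromosome 11 from 49846751 to 49886421), which encodes JNK2, had an FPKM of 22.99, 24.9 and 24.4 in the controls, against 23.4, 22.8 and 21.3 in the mutants. It ran opposite to *Mapk8*, with mutant replicates 2 and 3 as the lowest samples and mutant replicate 1 among the controls. The log2 difference was -0.094 (standard error 0.075, limma, adjusted p = 1). It was 0.027 for the samples numbered 1, -0.15 in replicates 2 and 3, -0.057 without mutant replicate 3 and -0.17 with Y-linked expression in the fit. The FPKM of *Mapk9* was 0.627, 0.642 and 0.641 times that of *Mapk8* in the 3 controls, a narrow range. In mutant replicates 1, 2 and 3 it was 0.662, 0.519 and 0.463 times, so 1 mutant lay above and 2 below all controls. The log2 ratio differed by -0.23 (standard error 0.15, n = 3 per group, exact two-sided permutation p = 0.40, adjusted over 5 ratios 0.667), and its direction was not common to the 3 replicate numbers.

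*Mapk10*, which encodes JNK3, the JNK kinase known mainly from neurons, had the smallest p of the 44 further pathway genes that were tested. Its FPKM was 11.03, 14.6 and 11.4 in the controls, against 15.9, 17.6 and 13.1 in the mutants. The groups overlapped, since mutant replicate 3 lay below control replicate 2. The mutant was higher in each replicate number, by 0.49, 0.25 and 0.18, as in 13.6% of all genes tested. The log2 difference was 0.31 (standard error 0.14), with an unadjusted p of 0.066 and an adjusted p of 1 in limma. With the replicate number as a block the unadjusted p was 0.00983 and the adjusted p 0.768 in limma. With Y-linked expression as a covariate, in effect mutant replicate 3 against the controls, the log2 difference was 0.082. The summed FPKM of the neuron markers was also higher in every mutant (737 to 844 against 593 to 697). Such a sum follows its most abundant genes and does not show that each marker was higher. The part of neurons in the level of *Mapk10* was not tested. Of the summed JNK FPKM, *Mapk8* made up 47.4% to 57.3%, *Mapk9* 26.5% to 33.0% and *Mapk10* 15.5% to 21.3%. The share of *Mapk9* was lower in every mutant (31.4%, 27.0% and 26.5%) than in every control (32.5%, 31.8% and 33.0%). The FPKM of *Mapk9* itself overlapped between groups, as did the shares of *Mapk8* and *Mapk10*. Shares of the same sum depend on each other, and that of *Mapk10* was highest in mutant replicate 1 (21.3%). The lower share of *Mapk9* is thus not a finding on that gene alone, and no share was tested between groups.

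**Figure D3:**
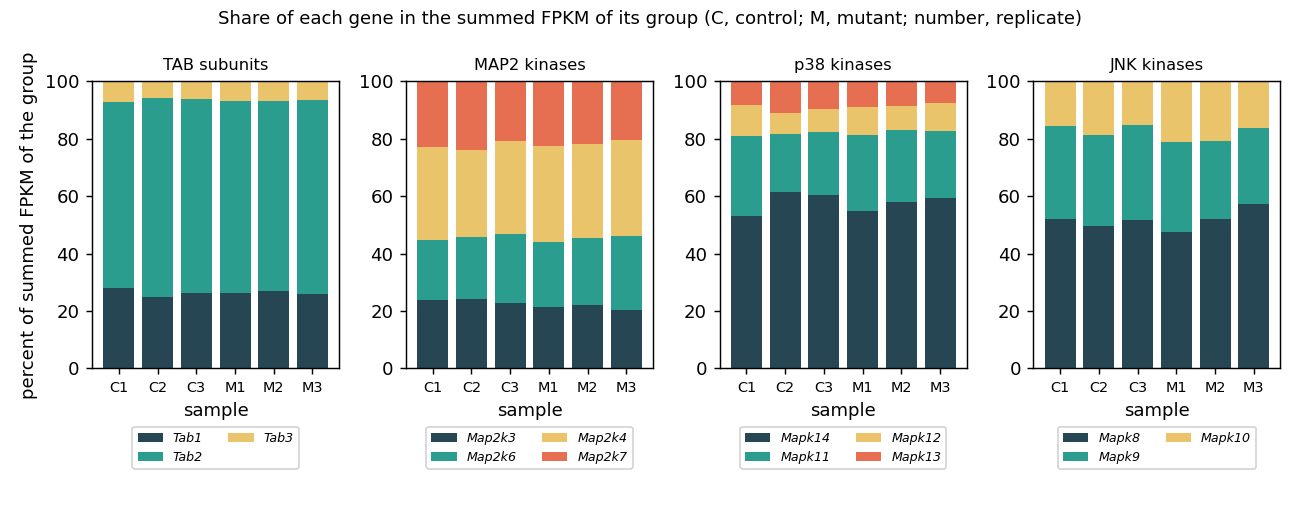
Percent of the summed FPKM (vertical axis) that each gene makes up among the TAB subunits, the MAP2 kinases, the p38 kinases and the JNK kinases, with 1 bar per sample (C, control, M, mutant). *Tab2*, *Mapk14* and *Mapk8* hold the largest share of their group in all 6 samples, and *Map2k4* that of the MAP2 kinases.

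In order of mean FPKM over the 6 samples, the members ran *Tab2* (52.0), *Mapk8* (39.8), *Map3k7* (33.9), *Mapk14* (33.4), *Map2k6* (24.4), *Map2k3* (23.9), *Mapk9* (23.3), *Tab1* (20.4), *Traf6* (8.75) and *Tab3* (5.13). *Tab2* exceeded *Mapk8* in 6 of 6 samples and was 1.30 times as high. *Mapk8* in turn exceeded *Map3k7* in 6 of 6 samples. *Map3k7* and *Mapk14* could not be told apart, as *Map3k7* was the higher in 2 of 6 samples. Neither could *Map2k6*, *Map2k3* and *Mapk9*, whose ranges overlapped and where each was above the next in 4 of 6 samples. The order of the first pair differed by group, with *Map2k6* above *Map2k3* in 3 of 3 mutants and in 1 of 3 controls. *Traf6* was 1.71 times as high as *Tab3*, with no overlap, and *Tab1* 2.34 times as high as *Traf6*.

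**Figure D4:**
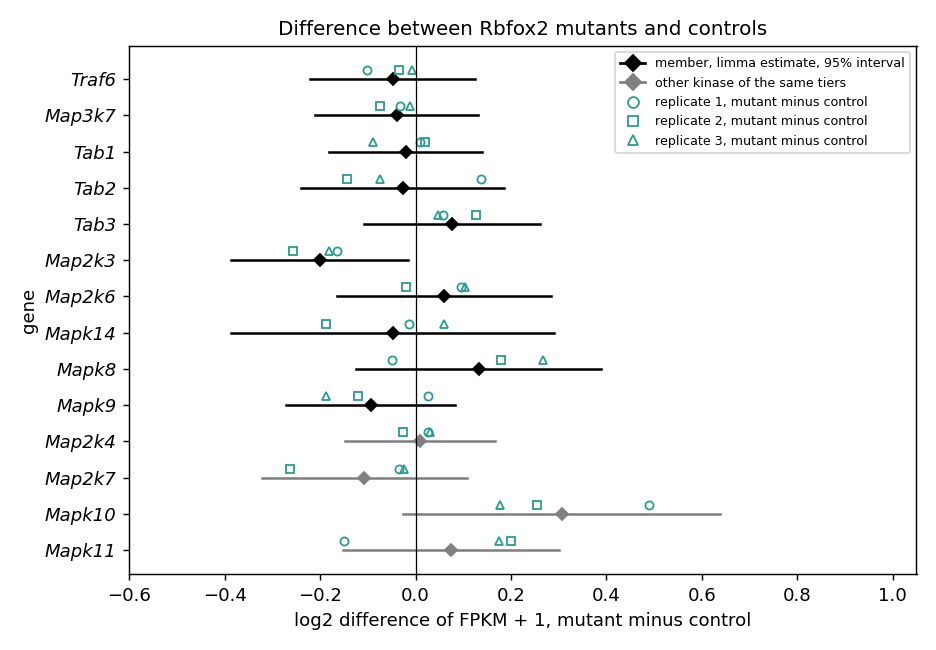
Difference of log2(FPKM + 1), mutant minus control (horizontal axis), for the 10 genes (black) and 4 further kinases of the same tiers (grey), as the limma estimate over 3 samples per group with its 95% interval and, as open symbols, within each replicate number. The interval of *Map2k3* alone does not include 0, with no adjustment for the number of genes tested.

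A further 58 genes of the pathway, listed by role, give the wider view. Of these, 44 passed the FPKM filter, 21 with a positive and 23 with a negative log2 difference, with a median of -0.0043. None had an unadjusted p under 0.05 in limma, against 1.66% of all genes tested, and none an adjusted p under 0.05. With the replicate block, 1 of the 44, *Mapk10*, had an unadjusted p under 0.05, against 6% of all genes, and with replicates 2 and 3 only, 5 of 45 had one, against 1130 of 10258 genes. The groups did not overlap in 2 of the 44, the JNK pathway kinase gene *Map3k10* and the transcription factor gene *Elk1*, named after their values were seen, which were slightly higher in mutants, against 5% of all genes (2.63% higher in mutants). *Map3k10* was at 25.3, 25.3 and 25.1 in the controls, against 29.1, 26.7 and 26.1 in the mutants. *Elk1*, which is X-linked, was at 15.3, 14.9 and 15.1 in the controls, against 16.1, 15.8 and 15.4 in the mutants. The log2 differences of *Map3k10* and *Elk1* were 0.11 and 0.061. They were 0.043 and 0.029 with Y-linked expression as a covariate, in effect mutant replicate 3 against the controls.
The receptors, ubiquitin ligases and adaptors upstream of TAK1 had log2 differences from -0.12 to 0.068 in the 10 of 12 that were tested. The 7 tested deubiquitinases and phosphatases, which switch the complex or its MAPKs off, lay between -0.059 and 0.21. *Dusp8*, a phosphatase of JNK and p38, had the highest value of these. Its FPKM was 10.9, 8.14 and 8.83 in the controls, against 11.95, 11.2 and 9.46 in the mutants, with the groups overlapping through control replicate 1 (log2 difference 0.21, standard error 0.13, limma, adjusted p = 1). Without control replicate 1 the log2 difference was 0.32 (unadjusted p 0.0284 in limma), and with Y-linked expression in the fit it was 0.031. The 6 tested MAP3 kinases lay between -0.064 and 0.11 and the 4 scaffold genes between -0.078 and 0.17.
The 7 genes of the IKK and NLK arms ranged from -0.19 to 0.16. *Chuk*, which encodes IKKα, was the lowest of these, at 21.4, 19.2 and 18.5 in the controls, against 18.3, 14.7 and 18.8 in the mutants. Mutant replicate 3 lay within the controls, and the log2 difference was -0.19 (standard error 0.11, limma, adjusted p = 1). It was -0.082 without mutant replicate 2, the lowest sample, and -0.064 with Y-linked expression in the fit. The 6 tested kinases and transcription factors downstream of p38 and JNK lay between -0.051 and 0.095, and none of them passed the test.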

How the data were processed

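The authors prepared stranded poly(A)+ libraries from 3 control and 3 mutant samples, aligned paired-end reads to GRCm38 with STAR and deposited FPKM values per gene. The methods name Cuffdiff, and the step that made the gene table, its version and its annotation are not given in the sources used here. The single-sample tables and the series table held the same values (0 differences). From these values, log2(FPKM + 1) was computed for the 10061 genes that exceeded an FPKM of 5 in each sample of at least 1 group. The 6 samples entered 1 fit in limma 3.58.1 (R 4.3.3), with the variance prior following mean expression and genotype as the only term. Fold changes on this scale understate those of genes with low FPKM. Ratios of 2 genes within a sample were compared with an exact two-sided permutation test. Coordinates, exons and coding sequences come from GENCODE M21 for GRCm38, which holds 95.0% of the deposited identifiers. *Map3k20* was found under its older name. No exon of another annotated gene overlaps an exon of a member.

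The members and lists were chosen with earlier results of these data known, and no list was tested as a set. The text names all members, *Rbfox2*, the 6 further kinases of the same tiers and, as no pathway gene had an unadjusted p under 0.05, the 3 with the smallest p (*Mapk10*, *Chuk* and *Dusp8*). *Map3k10* and *Elk1* were added after their values were seen. The groups share replicate numbers, and after subtraction of its group mean each sample correlated, across genes, with the other sample of its number (r = 0.64, 0.26 and 0.51 for numbers 1, 2 and 3), so the numbers were taken to pair the samples on this ground alone. Control 3 also correlated with mutant 2 (0.40) and control 2 with mutant 3 (0.23), so the values set replicates 1 apart from the others but do not single out the pairs numbered 2 and 3. The labels call the samples independent biological replicates. The alternatives, 16 in all, were another pseudocount, scaling, filter or variance model, the replicate block, Y-linked expression, a term for the first replicates, replicates 2 and 3 only, and each sample left out.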

Additional observations from a re-analysis of the deposited data

How the results depend on the processing

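Under 16 alternatives, the log2 differences could not change with the replicate block, the first-replicate term, another filter or no variance trend. No gene passed the adjusted threshold in the main fit, so few values could change side. Within these limits, 294 of 304 values of the 19 tested genes named here kept their direction and their side of that threshold in limma. The sign changed in 8, for *Map3k7* (0.032) and *Mapk14* (0.16) with Y-linked expression as a covariate, *Mapk14* (0.028) and *Tab2* (0.031) without control replicate 2, *Mapk14* (0.058) without mutant replicate 1, *Map2k6* (-0.0097) and *Map2k4* (-0.0085) without mutant replicate 3 and *Map2k4* (-0.0018) without control replicate 1. Of 30 values of *Mapk12* and *Mapk13*, which were below the filter, 2 changed sign (*Mapk12*, 0.058, was -0.0057 without control replicate 2 and -0.034 without mutant replicate 3). *Rbfox2* passed an adjusted p of 0.05 with a term for the first replicates (-0.75) and in replicates 2 and 3 only (-0.82). With each sample left out in turn, the ranges of these genes were -0.11 to 0.031 for *Tab2*, -0.17 to 0.058 for *Mapk14*, -0.0097 to 0.11 for *Map2k6* and -0.0085 to 0.024 for *Map2k4*. All 55 alternative values of the 5 ratios moved by less than 1 SD of single samples. With the replicate block, the first-replicate term or a sample left out, that outcome was fixed in advance. The ratio of *Map3k7* to *Tab1* (-0.019) changed sign without mutant replicate 1 (0.0049) and 2 (0.012). That of *Tab2* to *Tab1* (-0.0064) changed sign without control replicate 2 (0.054) and 3 (0.0017) and without mutant replicate 2 (0.012).

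No member had an adjusted p under 0.05 under any alternative. The count of members with an unadjusted p under 0.05 was 2 in replicates 2 and 3 only (*Map2k3* and *Mapk8*), against 11% of all genes tested. Counts from the fit with Y-linked expression are not given, as that fit rests in effect on mutant replicate 3 against the controls. With a sample left out it was 0 to 1, where the 1 was *Map2k3* without control replicate 1 and *Mapk8* without mutant replicate 1. The pathway count was 1 with the replicate block, 1 with the term for the first replicates, 5 in replicates 2 and 3 only and 0 to 5 with a sample left out, with 5 without control replicate 1. Over all genes tested, 604 had an unadjusted p under 0.05 with the replicate block, 304 with an FPKM filter of 1, 663 with no filter, 611 with the term for the first replicates, 1130 in replicates 2 and 3 only and 78 (without control replicate 2) to 690 (without control replicate 1) with a sample left out, against 167. An adjusted p under 0.05 was reached by 3 genes with that term, 4 in replicates 2 and 3 only and 0 to 5 with a sample left out, none of them a member. The replicate block changed no other call. The causes were not tested. FPKM hide the depth, so counting error is unknown.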
